A study of Mus musculus with 2 samples.

Results

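The 10 genes described here carry peptides from the proteasome to MHC class I molecules at the cell surface. They are the immunoproteasome subunits *Psmb8*, *Psmb9* and *Psmb10*, the peptide transport and loading genes *Tap1*, *Tap2* and *Tapbp*, the class I chains *B2m*, *H2-K1* and *H2-D1*, and the transactivator *Nlrc5*. Each was found on the microarray by its gene name, which gave 17 probes that were not controls. All 10 had a value, out of 21610 genes with a value and 37074 gene names on the array. The set was selected on the roles of the genes with the log2 fold changes of this contrast already known, among them those of *Psmb8* and *Psmb9*, so the values below are a description and support nothing by themselves.

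The proteasome cuts proteins into peptides. In cells exposed to interferon-γ, the 3 catalytic β subunits of the constitutive proteasome are replaced by *Psmb8*, *Psmb9* and *Psmb10*, and the resulting immunoproteasome favours peptides that fit MHC class I. The peptides are pumped into the endoplasmic reticulum by the TAP transporter and loaded with the help of tapasin onto class I heavy chains paired with β2-microglobulin, for display to CD8 T cells. NLRC5 is a nuclear protein that drives transcription of many of these genes, and cardiomyocytes are known for a low basal level of the pathway.

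The cells were MCMs, purchased mouse cardiomyocytes that were kept in DMEM with 2% serum and used at passages 10 to 20. Negative control siRNA, named siRNA-NC, was given to 1 culture and siRNA-*Ppp2r5d* to another. *Ppp2r5d* encodes B′δ, a regulatory subunit of protein phosphatase 2A. Both received glucose-free medium 48 h after transfection, and RNA was taken at 64 h. Each RNA was hybridized to 1 one-colour microarray, so a difference between them cannot be set against a spread between cultures, and no p-values are given.

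The value of a probe is its background-corrected intensity in scanner units, and the fold changes are log2 ratios of siRNA-*Ppp2r5d* over siRNA-NC after each array was set to its 75th percentile, 591.8 for siRNA-NC and 518.5 for siRNA-*Ppp2r5d*. This scaling adds 0.19 to each raw log2 ratio. The lowest signal well above background was 14.9 and 13.5, and no spot was saturated. *Ppp2r5d* itself went from an intensity of 4701 to 676.1, which is 6.09-fold lower. Among replicate spots, the SD of the log2 ratio was 0.036 in the median of 293 probes, and 0.21 over the 8 of these probes with an intensity between 10 and 100. These SDs describe spots, and the spread between cultures is unknown.

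*Psmb9*, *Tap1*, *Psmb8* and *Tap2* were lower with siRNA-*Ppp2r5d*, by 1.32-fold to 2.48-fold over their 5 measured probes. *Psmb10*, *Tapbp*, *H2-K1* and *H2-D1* lay within 0.23 of 0 on the log2 scale, *B2m* had 2 probes that disagreed, and *Nlrc5* was higher. The 4 lower genes are neighbours on chromosome 17, where *Psmb9* and *Tap1* are read outward from the same short interval. The probes of *Psmb9* and *Psmb8* are shown because each gene passed 2-fold on 1 probe alone. By the scanner files they lie at chr17:34319174-34319233 on the minus strand and chr17:34337771-34337830 on the plus strand of mouse build mm9, within the genes of those names. Which exon or untranslated region they fall in was not analysed here. Neither shares a run of 20 bases or more with a probe of another gene. The full RNAs of other genes were not searched, so binding of another RNA was not tested.
*Psmb9* probe: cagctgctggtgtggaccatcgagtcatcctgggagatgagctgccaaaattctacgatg
*Psmb8* probe: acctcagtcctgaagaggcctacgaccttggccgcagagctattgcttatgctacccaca

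The RefSeq start sites of *Tap1* and *Psmb9* are 226 bases apart on opposite strands, so that their promoter windows, taken from 250 bases before to 50 bases after each start, share 275 bases. The *Tap1* window is printed because it serves as the window of both genes. It is chr17:34187306-34187605 on the plus strand of GRCm38.p6, a later build than that of the probe positions. The first capital is the start of *Psmb9*, which is read to the left, and the second is the start of *Tap1*, which is read to the right.
*Tap1* and *Psmb9* window: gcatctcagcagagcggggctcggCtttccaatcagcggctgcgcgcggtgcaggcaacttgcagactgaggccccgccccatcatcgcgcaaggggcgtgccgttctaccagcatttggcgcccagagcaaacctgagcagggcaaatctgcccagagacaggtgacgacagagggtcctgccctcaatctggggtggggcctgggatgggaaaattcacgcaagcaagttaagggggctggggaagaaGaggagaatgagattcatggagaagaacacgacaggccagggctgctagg

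Of the 10 genes, 8 had a promoter window in the RefSeq table used. These windows were searched on both strands for GAAANNGAA, the core of the interferon response element, TTCNNNGAA, bound by STAT factors, the κB motif, bound by NF-κB, and TGACGTCA, the cAMP response element. In the *Tap1* and *Psmb9* windows no match to any of the 4 was found. The *Psmb8* window, chr17:34197945-34198244 on the plus strand, held a match to the STAT motif at positions -97 to -89 from the start, shown in capitals.
*Psmb8* window: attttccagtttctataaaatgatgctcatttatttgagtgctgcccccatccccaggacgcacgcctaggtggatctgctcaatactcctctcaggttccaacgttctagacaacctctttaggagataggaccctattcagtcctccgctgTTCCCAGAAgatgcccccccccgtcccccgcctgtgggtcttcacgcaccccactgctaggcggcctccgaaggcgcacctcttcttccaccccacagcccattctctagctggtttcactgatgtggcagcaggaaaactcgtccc

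The κB motif was present in the windows of *B2m*, *H2-K1* and *H2-D1* and in no other window of the 8 genes. The *B2m* window, chr2:122147437-122147736 on the plus strand, also held the interferon response element core, which is the first of its runs of capitals, with the κB motif as the second. In the windows of *H2-K1*, chr17:34000298-34000597 on the minus strand, and *H2-D1*, chr17:35262844-35263143 on the plus strand, the capitals mark 2 overlapping κB matches. The table gives a second *H2-K1* start with the same matches.
*B2m* window: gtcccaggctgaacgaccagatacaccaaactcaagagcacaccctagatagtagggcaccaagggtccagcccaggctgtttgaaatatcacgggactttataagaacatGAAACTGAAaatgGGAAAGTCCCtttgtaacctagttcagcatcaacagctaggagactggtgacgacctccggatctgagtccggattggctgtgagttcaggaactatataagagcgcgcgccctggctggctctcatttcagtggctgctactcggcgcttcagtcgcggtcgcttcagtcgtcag
*H2-K1* window: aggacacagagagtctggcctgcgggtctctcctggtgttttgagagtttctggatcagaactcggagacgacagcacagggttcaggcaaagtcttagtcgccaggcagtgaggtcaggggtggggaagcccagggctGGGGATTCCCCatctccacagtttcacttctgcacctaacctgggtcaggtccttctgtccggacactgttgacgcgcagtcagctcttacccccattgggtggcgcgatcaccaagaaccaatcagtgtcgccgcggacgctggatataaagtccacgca
*H2-D1* window: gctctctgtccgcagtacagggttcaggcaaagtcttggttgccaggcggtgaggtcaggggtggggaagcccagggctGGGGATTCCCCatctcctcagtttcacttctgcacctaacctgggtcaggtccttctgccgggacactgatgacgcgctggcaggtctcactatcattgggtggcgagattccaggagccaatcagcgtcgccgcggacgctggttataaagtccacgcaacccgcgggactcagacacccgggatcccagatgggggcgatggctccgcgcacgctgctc

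Over all 32851 promoter windows, the interferon response element core was present in 8.56%, the STAT motif in 8.3%, the κB motif in 8.46% and the cAMP response element in 1.79%. The genes with the κB motif were thus the 3 class I chain genes, none of which was 1.5-fold lower or higher. A match of letters does not show that a factor binds there. Nor does a window without a match lack such a site, since variants of these letter patterns were not searched.

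Of the immunoproteasome subunits, *Psmb8* and *Psmb9* were lower and *Psmb10* was not. *Psmb9*, the β1i subunit also called LMP2, had an intensity of 69.1 with siRNA-NC and 24.4 with siRNA-*Ppp2r5d*, a log2 fold change of -1.31 or 2.48-fold lower. A second *Psmb9* probe, with 3.06 and 2.71, was not well above background on either array and was left out. *Psmb8*, the β5i subunit also called LMP7, went from 84.2 to 36.5, a log2 fold change of -1.01 or 2.02-fold lower. It lay at the 2-fold limit itself, and its side of that limit changed with the scaling. *Psmb10*, the β2i subunit also called MECL1, had 2290 and 2107, a log2 fold change of 0.07. Unlike *Psmb8* and *Psmb9* it lies outside the MHC, on chromosome 8. Whether these subunits differed from each other cannot be tested with 1 array each.

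The transporter genes were lower by less. *Tap1* encodes one chain of the peptide transporter and had 2 measured probes. The first went from 27.6 to 18.1 and the second from 171.6 to 114.1, log2 fold changes of -0.42 and -0.40. These ratios were nearly the same, but the first probe was only 1.85 and 1.35 times the lowest signal well above background. Their likeness therefore carries little weight. *Tap2*, the other chain, had 6721 and 3981 on its measured probe, a log2 fold change of -0.56 or 1.48-fold lower. This probe is far above background, unlike those of *Psmb8* and *Psmb9*. The second *Tap2* probe, with 9.52 and 6.45, was not well above background on either array, and its log2 ratio of -0.37 was not used. Both *Tap2* probes were designed on the same transcript, and why their brightness differs so far was not tested. *Tapbp* encodes tapasin, which bridges the transporter and the class I heavy chain. Its probes had log2 fold changes of 0.09, from 14750 to 13763, and of -0.09, from 368.4 to 303.7, and their mean was 0.0015.

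None of the class I chain genes was 1.5-fold lower or higher. *H2-K1* and *H2-D1* encode classical heavy chains, which hold the peptide. *H2-K1* had 22433 and 22995 on 1 probe and 5132 and 5135 on the other, log2 fold changes of 0.23 and 0.19. The second of these probes shares a run of 29 bases with a probe of *H2-L*, a related heavy chain gene, and the part of *H2-L* RNA in its signal was not tested. *H2-D1* had 785.3 and 806.9, a log2 fold change of 0.23. Before scaling, the intensities of both genes were nearly equal on the arrays, and the positive values come mostly from the 0.19 that scaling adds. *B2m*, the light chain shared by all class I molecules, had probes that disagreed. The brighter went from 33630 to 34659, a log2 fold change of 0.23, and the dimmer, designed on another transcript, from 227.7 to 147.1, a log2 fold change of -0.44. The mean of -0.10 thus describes neither probe.

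*Nlrc5* went the other way from *Psmb8* and *Psmb9*. Its first probe went from 227.4 to 423.2, a log2 fold change of 1.09 or 2.12-fold higher, and its second from 28.2 to 34.6, a log2 fold change of 0.49. The mean was 0.79, or 1.72-fold higher. Both probes were higher on the siRNA-*Ppp2r5d* array, but only the first passed 2-fold.

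**Figure D1:**
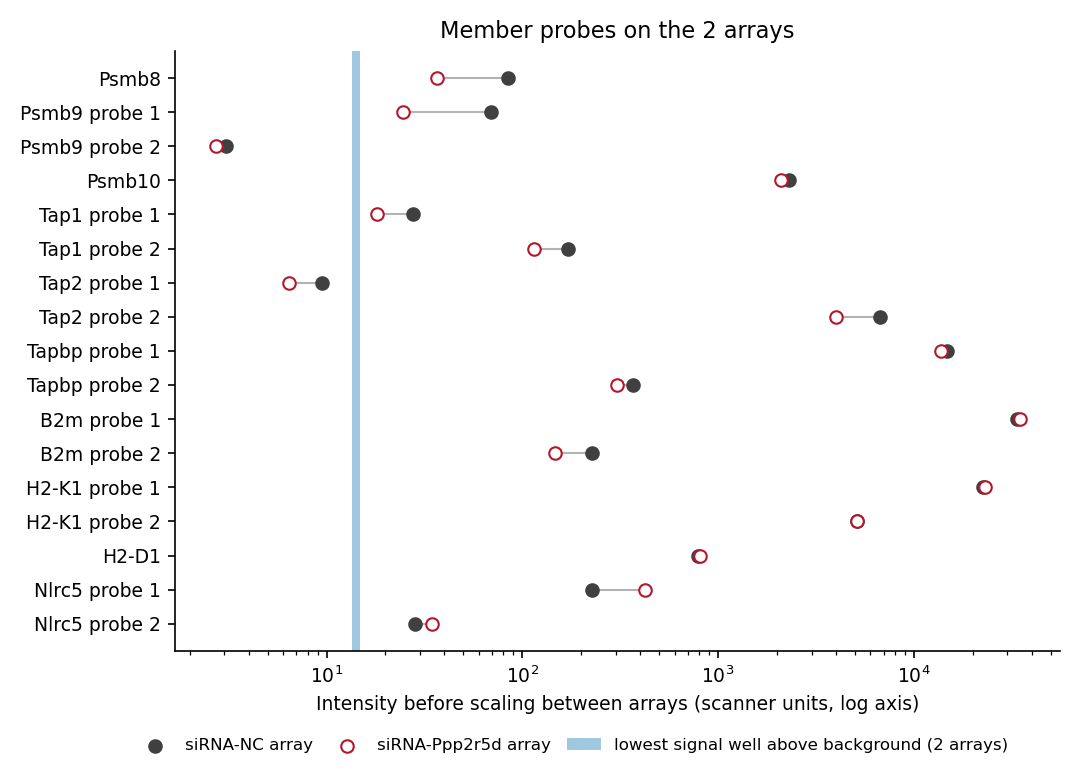
Intensity of the 17 probes of the 10 genes on a log axis, with filled circles for the siRNA-NC array, open circles for the siRNA-*Ppp2r5d* array and a band at the lowest signal well above background, 13.5 to 14.9. The probes of *Psmb8* and *Psmb9* lie within 1 decade of this band, and 1 probe each of *Psmb9* and *Tap2* lies below it.

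**Figure D2:**
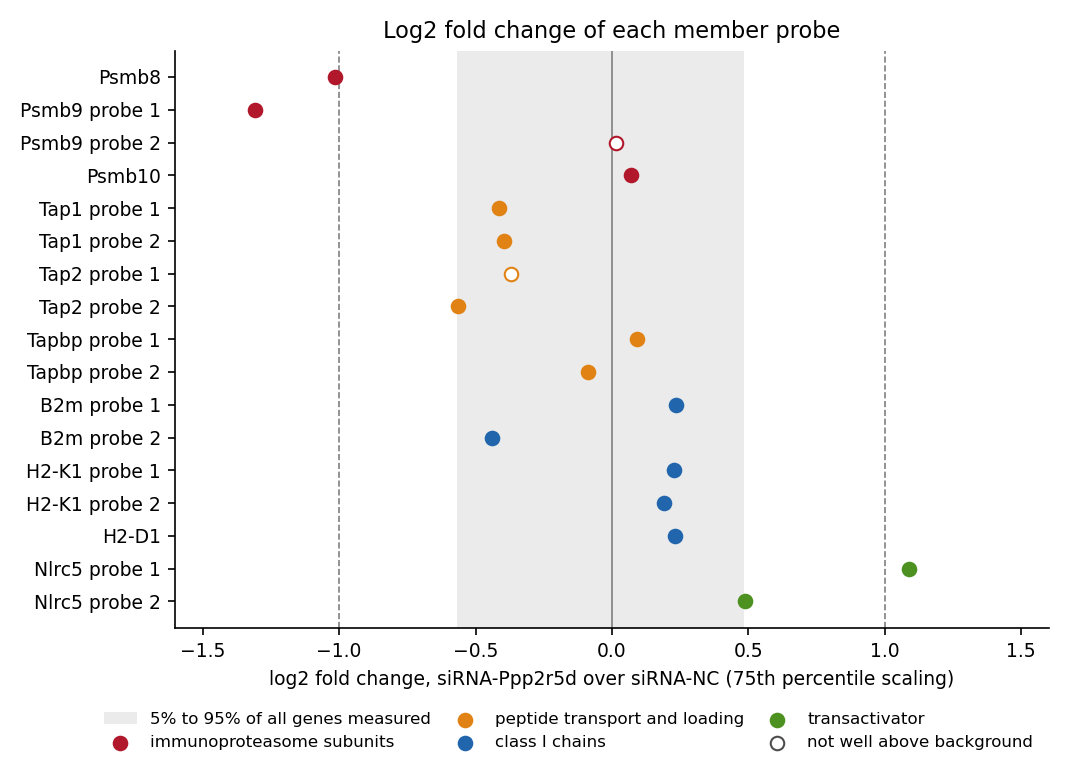
Log2 fold change of each probe, siRNA-*Ppp2r5d* over siRNA-NC, by role, with open circles for probes not well above background, dashed lines at 2-fold and a grey band from -0.57 to 0.48, which holds 5% to 95% of all genes measured on both arrays. The *Psmb8* probe and the measured *Psmb9* probe lie left of the band and beyond -1, 1 *Nlrc5* probe lies beyond 1, and the points of the class I chains other than 1 *B2m* probe lie together near 0.2.

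Set against all genes, 2 of the 10, *Psmb8* and *Psmb9*, were at least 2-fold lower, where 1.43% of the 21610 genes with a value were. No other member passed 2-fold either way, so 2 of 10 were past it, where 2.43% of all genes were lower or higher by as much. At 1.5-fold, the same 2 genes were lower, against 5.41% of all genes, and *Nlrc5* alone was higher, against 3.79%. Since the genes were chosen with this contrast known, these shares are printed for scale and nothing is read from them. Of the 10 genes, 5 had a value below 0 and 5 above, with a median of -0.05. Of the 20311 genes measured on both arrays, 9370 were below 0 and 10941 above, with a median of 0.02. By role, the median was -1.01 for the immunoproteasome subunits, -0.41 for transport and loading and 0.21 for the class I chains. Counted from the lowest of the genes measured on both arrays, *Psmb9* stood at 0.369%, *Psmb8* at 0.99%, *Tap2* at 5.05% and *Tap1* at 9.15%. *Nlrc5* stood at 1.69% from the highest.

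The 2 genes past 2-fold were measured by dim probes, and fold changes of dim probes spread more widely. Among 8326 probes with a mean intensity from 20 to 100, which include 4 of these genes' probes, 2.13% were at least 2-fold lower and 1.61% at least 2-fold higher, and the SD of the log2 fold change was 0.45. The probes of *Psmb9* and *Psmb8* were the 2 of those 4 past 2-fold. From 100 to 1000 the shares were 1.04% and 0.885% of 10844 probes, and the first *Nlrc5* probe was the 1 of 5 past 2-fold. Above 1000 both shares were 0.226% of 11487 probes, and none of 6 was past 2-fold. The bright *Tap2* probe, at -0.56, lay below -0.32, the value under which 5% of the probes above 1000 lie. The scanner software gives an error for each signal. Combined over the 2 arrays as if independent, the error of the log2 ratio was 0.27 for the measured *Psmb9* probe, 0.24 for *Psmb8* and 0.20 for *Tap2*.

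**Figure D3:**
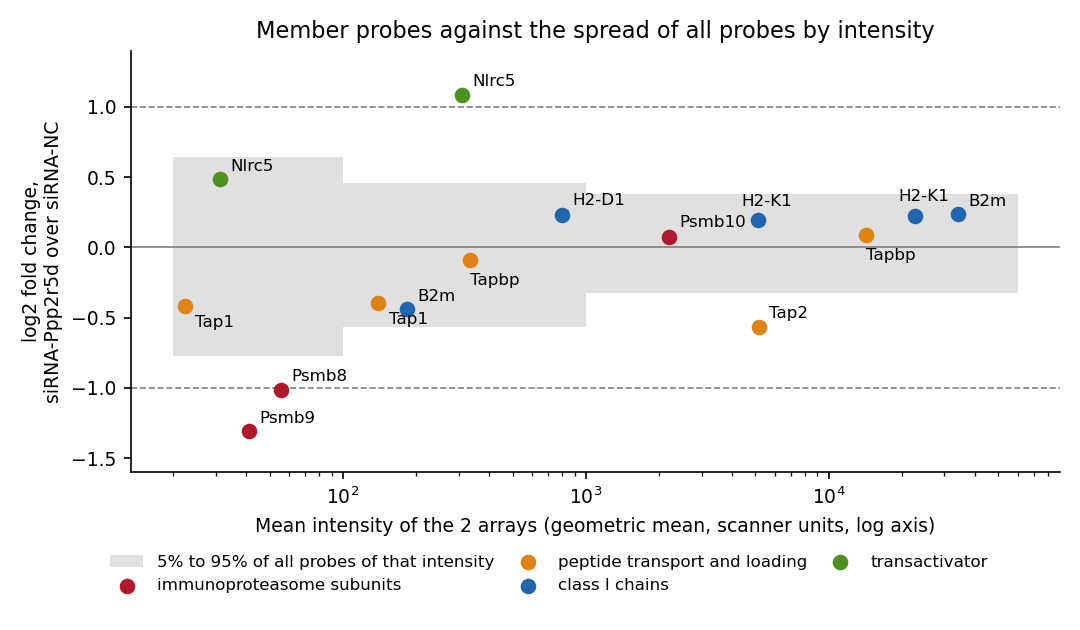
Log2 fold change of the 15 probes measured on both arrays against their mean intensity on a log axis, with grey steps that hold 5% to 95% of all probes with an intensity of 20 to 100, of 100 to 1000 and above 1000. The probes of *Psmb9*, *Psmb8* and *Tap2* lie under the grey steps, the first *Nlrc5* probe lies above them, and the others lie inside.

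The lower genes sit side by side. *Psmb9*, *Tap1*, *Psmb8* and *Tap2* follow each other within 34.0 kb of chromosome 17, from 34319174 to 34353175 of build mm9, inside the class II region of the MHC. All 5 probes measured there were lower, with log2 fold changes from -1.31 to -0.40 and a median of -0.56. Around them, the stretch of 1341 kb from *Tapbp* to *H2-D1* held 125 other measured probes of 81 genes, of which 63 were lower and 62 higher, with a median of -0.01 and a range from -0.80 to 0.79. None of these 125 passed 2-fold. The lowest was *Col11a2*, a collagen chain, and the highest *Aif1*, a macrophage gene. The nearest measured probes were of *H2-DMa*, 52.3 kb before the midpoint between *Psmb9* and *Tap1*, with a log2 fold change of 0.08, and of *Btnl2*, 179.6 kb after it, with 0.26. The class I genes *H2-K1* and *H2-D1*, on either side, were at 0.21 and 0.23. The limits of the 34.0 kb were set by the genes already known to be lower, so this is a description of where they lie.

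**Figure D4:**
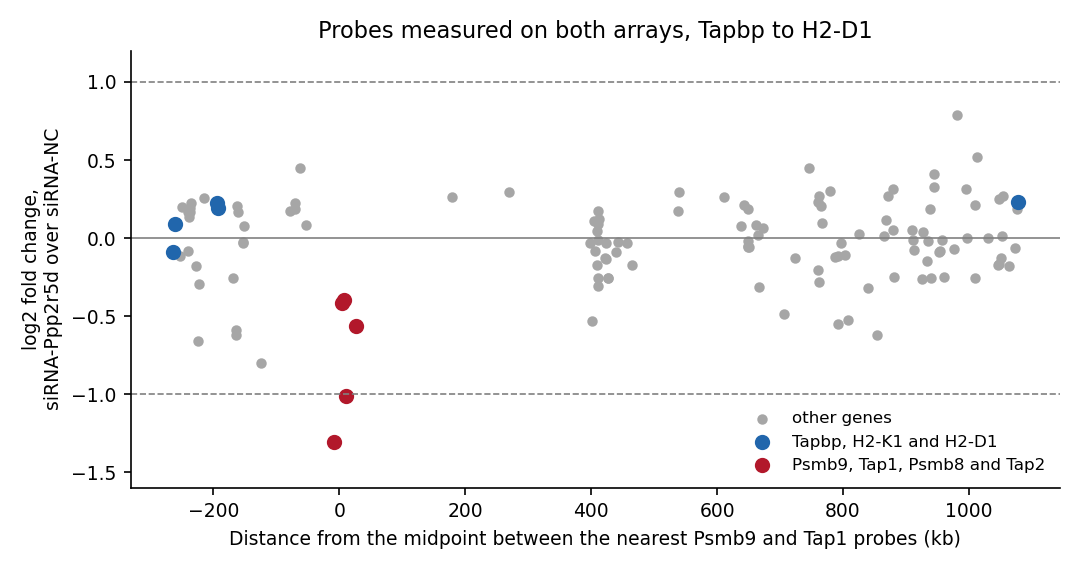
Log2 fold change of every probe measured on both arrays from *Tapbp* to *H2-D1*, against the distance in kb from the midpoint between the nearest *Psmb9* and *Tap1* probes, with dashed lines at 2-fold. The 5 red points of *Psmb9*, *Tap1*, *Psmb8* and *Tap2* lie between -1.31 and -0.40, and the grey and blue points lie on both sides of 0 without passing 2-fold.

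In the rest of the proteasome the values were small. *Psmb5*, *Psmb6* and *Psmb7* are the constitutive subunits that *Psmb8*, *Psmb9* and *Psmb10* replace. *Psmb5* had 13750 and 12600, a log2 fold change of 0.06. *Psmb6* had a log2 fold change of 0.05 over 2 probes and *Psmb7* of -0.04. The direction of these small values depended on the scaling, and the median of the 3, at 0.05, was -0.08 with quantile normalization and -0.13 with spike-in scaling. Of 13 other subunits of the 20S core, 11 were measured, 1 lower and 10 higher, from -0.04 for *Psma4* to 0.21 for *Psmb2*, with a median of 0.09 that became -0.03 with quantile normalization and -0.09 with spike-in scaling. The 18 subunits of the 19S cap had a median of 0.03, from -0.20 for *Psmd3* to 0.37 for *Psmd8*. Among 8 measured activators and assembly factors the median was 0.05, and *Psme1*, an interferon-inducible activator subunit, was at 0.06. *Psme2* was not found on the array under this name. With spike-in scaling the medians of the cap and of the activators and assembly factors were -0.15 and -0.13. None of these 40 genes passed 1.5-fold in either direction.

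Genes that act after the proteasome, with those of class II, were grouped in 3 lists. The 13 peptide trimming enzymes and endoplasmic reticulum chaperones had a median of 0.12, from -0.26 for *Uggt1*, which checks the folding of glycoproteins, to 0.36 for *Pdia3*, part of the peptide loading complex. Of 28 non-classical and other class I heavy chain genes, 21 were measured, 7 lower and 14 higher, with a median of 0.14. The lowest was *H2-T22* at -0.32 and the highest *H2-T24* at 0.57, on a dim probe with 19.4 and 25.2. Many of these genes are close relatives, and how far a probe takes up RNA of another was not tested. Of 12 genes of MHC class II presentation, 9 were not well above background on either array. Among these was *Ciita*, the class II counterpart of *Nlrc5*. The 2 measured were *Cd74* at 0.07 and *H2-DMa* at 0.08. With spike-in scaling the medians of the trimming and chaperone genes and of the heavy chains were -0.05 and -0.04. None of the genes measured on both arrays in these 3 lists passed 1.5-fold. Genes well above background on 1 array alone gave bounds, which state only the smallest change. The largest bound among the heavy chains was -0.54, for a gene seen with siRNA-NC alone, so whether it passed 1.5-fold is not known.

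Among the factors upstream of the 10 genes no common direction was seen. The 15 factors of class I promoters, which include the partners through which NLRC5 reaches DNA, had a median of 0.01, from -0.18 for *Nfkb1* to 0.29 for *Rfxank*. *Rfx5*, one of those partners, was at 0.02. Of 21 interferon receptor and signalling genes 19 were measured, 10 lower and 9 higher, with a median of -0.10, and none passed 2-fold. *Jak2*, a kinase of the interferon-γ receptor, was the lowest at -0.47, from 2670 to 1709 on its brighter probe. *Ifng*, which encodes interferon-γ, was the highest at 0.78, from 92.9 to 140.1, and the 1 gene of the list past 1.5-fold. *Irf1*, an interferon-induced transcription factor that acts on *Psmb9* and *Tap1*, had probes that disagreed, with log2 fold changes of 1.23, from 96.3 to 197.7, and of -0.08, from 5252 to 4342. No direction is given for *Irf1* as a gene, although its mean of 0.57 placed it among the 9 counted as higher.

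Markers of other cells were read beside these results, because immune cells carry much of this pathway. Of 13 leukocyte and macrophage markers, 8 were measured on both arrays, 3 lower and 5 higher, with a median of 0.04, and *Adgre1*, *Cd52* and *Tyrobp* were not well above background on either array. Before scaling, the intensities of the brightest probe of each of the 13 summed to 11630 with siRNA-NC and 9463 with siRNA-*Ppp2r5d*. The siRNA-*Ppp2r5d* array was dimmer as a whole, with a 75th percentile of 518.5 against 591.8. A lower sum therefore does not by itself show less RNA of those markers. *Itgax* was above background with siRNA-NC alone, on 1 of its 3 probes with 51.7 and 2.75, which gives a log2 bound of -1.75. The other *Itgax* probes were not well above background on either array. *Cd68*, at -0.77, and *Lyz2*, at -0.68, were lower by over 1.5-fold, while *Fcer1g* was at 0.87. *Lyz2* was named after its value was seen. Of 10 fibroblast markers, 9 were measured, with a median of 0.12 and *Lum*, at 1.08, past 2-fold. The intensities of all 10, summed in the same way before scaling, were 442100 and 423400. Of 7 endothelial markers 2 had a value, *Pecam1*, at -0.24, measured on both arrays, and *Tek*, on the siRNA-*Ppp2r5d* array alone. Of 12 cardiomyocyte markers, 9 had a value. Of the 7 measured on both arrays, 2 were lower and 5 higher, with a median of 0.08 and *Nppa*, at 0.62, the highest. The *Nppa* value rests on 1 dim probe, with 16.6 and 22.4, near the lowest signal well above background. The intensities of all 12 summed to 8627 and 7548 before scaling. *Actn2*, *Myl2* and *Myl7* were not well above background on either array. *Myh6*, the α myosin heavy chain, passed that level narrowly on the siRNA-*Ppp2r5d* array alone, with 12.38 for siRNA-NC and 14.25 for siRNA-*Ppp2r5d*. Others were well above background on both arrays, among them *Actc1* with 6443 and 5268, *Nkx2-5* with 1078 and 1001 and *Tnnt2* with 858 and 1006. Part of what defines a cardiomyocyte was thus seen in these MCMs and part was not. The part of other cell types in the values of the 10 genes was not tested, and in RNA of whole cultures fewer cells of a type and less RNA per cell cannot be told apart.

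Several values depended on the processing. *Psmb8* passed 2-fold in 4 of 9 alternative ways of processing that gave it a value, and *Psmb9* in 7 of 9. The 4 were spike-in scaling, no filter on dim probes, the brightest probe and outlier spots kept. *Psmb8* has 1 probe, so the last of these settings, other than spike-in scaling, could hardly move it. The authors' log2 values nearly equal quantile normalization and add little to it, so these tallies do not measure robustness. *Psmb8* and *Psmb9* were lower in all 9, from -1.19 to -0.40 for *Psmb8* and from -1.49 to -0.44 for *Psmb9*. The value nearest 0 in both came from normexp background correction with an offset of 50, which adds a constant to dim and bright spots alike and so draws the ratios of dim probes toward 0. Under a filter of 4 times the lowest signal well above background, neither gene had a value. *Tap1* and *Tap2* were lower in all 10 alternatives, from -0.58 to -0.13 and from -0.74 to -0.47. *Nlrc5* was higher in all 10, from 0.58 to 1.09. *B2m* ran from -0.28 with spike-in scaling to 0.23 with its brighter probe alone. Scaling to 10 spike-in probes in place of the 75th percentile moved all values by -0.18 in the median, which took *Psmb10* to -0.11 and *Tapbp* to -0.18 and left *H2-K1* at 0.03 and *H2-D1* at 0.05.

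**Figure D5:**
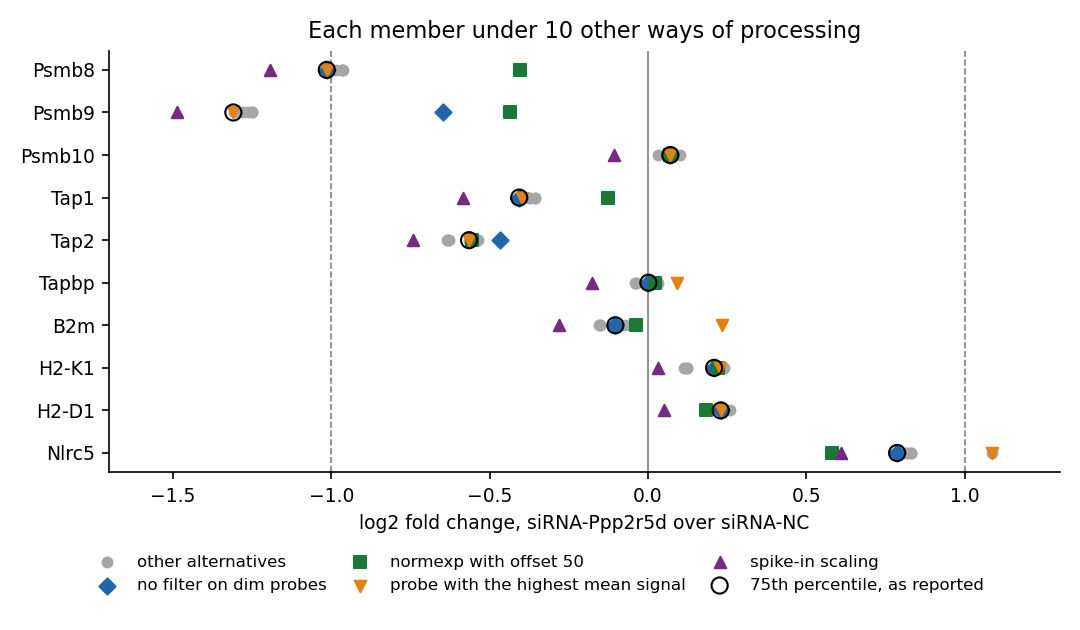
Log2 fold change of the 10 genes as reported, in open black circles, and under 10 alternatives, with dashed lines at 2-fold and 4 of the alternatives in colour. *Psmb9*, *Psmb8*, *Tap1* and *Tap2* stay left of 0, *Nlrc5*, *H2-K1* and *H2-D1* stay right of it, and *Psmb10*, *Tapbp* and *B2m* cross it.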

How the data were processed

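RNA of MCMs was measured on 2 one-colour microarrays, 1 for siRNA-NC and 1 for siRNA-*Ppp2r5d*, grouped by the sample labels. The deposited scanner output of Agilent Feature Extraction 10.7.1.1 gives background-corrected intensity per spot, with no scaling across the 2 arrays. The log2 values deposited for 56605 probes differed by 2.13e-06, as the median absolute difference, from quantile-normalized intensities. Their normalization is not given in the sources used here.

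Control spots and spots marked as outliers, 226 for siRNA-NC and 188 for siRNA-*Ppp2r5d*, were left out of the intensities. Replicate spots were averaged on the log2 scale, each array was centred on its 75th percentile, and a gene's probes were averaged where both arrays showed them well above background. Genes seen on 1 array only gave bounds. Of 59305 spots, 35544 and 35174 were well above background. With 1 array per condition no test was run, and the number of arrays limits the precision. The 10 genes, the 10 lists of related genes and the 4 marker lists were chosen with earlier results of these data known. Genes named are the 10, *Ppp2r5d*, the constitutive counterparts, *Psme1*, *Psme2*, *Irf1*, *Rfx5* and *Ciita*, and of each list the lowest, the highest and those past 2-fold. Some markers were also named because they were seen or not seen on the arrays. Neighbours on chromosome 17 were named by position or as the lowest and highest there. One gene under this rule is not reported here.

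The alternatives changed the scaling (the median of detected probes, quantile, cyclic loess or spike-in probes), the background correction (normexp, offset 50), the source (the authors' log2 values), the filter on dim probes (none or stricter), the outlier spots (kept), the probe of a gene (the brightest) or the threshold (1.5-fold and 4-fold). The gene step was tested on simulated data, made from 1 array with less noise than replicate spots of dim probes showed here. That test checks the computation and does not measure the precision of *Psmb8* and *Psmb9*. Promoter windows came from RefSeq. Software was limma 3.58.1 in R 4.3.3, and pandas 2.3.3, NumPy 2.4.6 and matplotlib 3.10.9 in Python 3.11.15.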

Additional observations from a re-analysis of the deposited data

How the results depend on the processing

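The number of the 10 genes at least 2-fold lower, 2 as reported, was 2 with spike-in scaling, with the brightest probe of each gene and with outliers kept. It was 1 with cyclic loess, quantile normalization, the authors' log2 values, the median of detected probes and no filter on dim probes, and 0 with normexp correction, with the stricter filter, under which *Psmb8* and *Psmb9* had no value, and at 4-fold. The number at least 2-fold higher, 0 as reported, was 1 with the stricter filter, with the brightest probe of each gene and at 1.5-fold, and that gene was *Nlrc5*. The median of the 10, -0.05 as reported, was -0.0953 with quantile normalization, -0.0984 with cyclic loess, -0.0071 with normexp correction, -0.229 with spike-in scaling, -0.0949 with the authors' log2 values, 0.036 over 8 genes with the stricter filter and 0.0807 with the brightest probe of each gene. In the last of these *B2m* rests on its brighter probe, at 0.23. The 4 genes from *Psmb9* to *Tap2*, a count added after the values were seen, were lower in each alternative except the stricter filter, which left 2 of them, both lower. Over all genes, 308 were at least 2-fold lower and 217 higher, 547 and 132 with spike-in scaling, 45 and 62 with normexp correction, 116 and 96 with the stricter filter and 1106 and 934 with no filter. No paired analysis was possible because each group has 1 array, and for that reason no replicate could be left out. The signal over background limits what can be said of *Psmb8* and *Psmb9*.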
